A study of Mus musculus with 9 samples.

Results

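Interleukins are secreted proteins by which immune and tissue cells signal to each other, and each acts through a receptor built from a few chains that are often shared between cytokines. The genes described here are the interleukins and interleukin receptor chains outside the interleukin-1 and interleukin-6 families. They were taken from a table of 25526 gene names as every symbol starting with Il and a number, leaving out Il1a, Il1b, the Il1r, Il1f, Il18, Il33 and Il36 genes and Il6, Il6ra, Il6st, Il11 and Il11ra1. This gave 57 genes, 27 cytokines, 29 receptor chains and the enzyme gene Il4i1, which the symbol rule brings in. Il11ra2 stays in by the rule, although its reads can be shared with its close copy Il11ra1. Of the 57, 31 reached at least 1 FPKM in at least 3 of 9 libraries and were tested, and of the other 26, 6 were listed at 0 in every library. FPKM is a level set per transcript length and library size.

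The libraries came from lung tissue of 9 mice, in 3 groups of 3 animals. One group is normal, another carries the pulmonary fibrosis model, and the third received PepNzymeSOD-CAT (here the nanozyme group). This material is an inhalable polypeptide whose name refers to superoxide dismutase and catalase activity. The labels give no strain, age, sex, inducer of fibrosis, dose or time for any group, and do not say whether the mice given the nanozyme also had the fibrosis model. The questions were which interleukin genes differed in the fibrosis model and where the lungs given the nanozyme lay between model and normal lung.

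Most of these cytokines use the JAK-STAT route: the bound receptor activates Janus kinases, which activate STAT transcription factors, and SOCS proteins feed back on the kinases. The interleukin-17 receptors instead signal through their own adaptor to NF-kB and stabilise target messenger RNAs. In lung, interleukins 4, 5 and 13 are known for type 2 (allergic) responses, interleukins 12 and 27 for type 1 responses, and interleukins 17, 22 and 23 for barrier defence and neutrophil recruitment.

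FPKM sums ran from 443746 to 519772 per library, and since counts were not used here the depth is unknown. On the first principal component of all tested genes, with 62.8% of the variance, model libraries ranged from 39.5 to 61.2, normal libraries from -63.5 to -54.8, and nanozyme replicates 1, 2 and 3 lay at -14.4, 43.3 and -9.68. Nanozyme replicate 2 thus stood apart from its group, and the calls among the 31 genes that change without it are named below. The lung markers Sftpc, Sftpb, Scgb1a1 and Ager were present in every library, at summed levels of 79695 to 100779 FPKM in normal, 15692 to 25393 FPKM in model and 32970 to 55155 FPKM in nanozyme lung, with 3 of 4 lower in model than in normal lung. Means carry the SD over 3 mice. Values with ± SE in brackets are limma estimates of the log2 fold change on the log2(FPKM + 1) scale. Adjusted p-values are Benjamini-Hochberg values over all 14540 genes tested, two-sided, with 0.05 as the threshold.

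In model lung, 22 of the 31 tested genes were higher than in normal lung and 3 were lower (limma), against 17.4% higher and 22.7% lower among all 14540 genes tested. The 22 were receptor chains in 14 cases, cytokines in 7 cases, and Il4i1. The 3 lower genes were Il17d, Il17re and Il22ra1. The median log2 change of the 31 was 1.10, against -0.12 over all tested genes. The groups did not overlap for 24 higher genes, the 22 with Il15 and Il12b, and for the 3 lower ones, against 23.5% and 34.9% of all genes. These shares describe the genes that passed the filter and not all 57: 9 of the 31 had no normal library at 1 FPKM and passed through the other groups, namely Il2ra, Il12b, Il23a, Il27, Il12rb1, Il10, Il22, Il20rb and Il17a. A gene that passes the filter in this way has to differ between groups. Leaving out 1 library at a time gave 18 to 24 higher and 3 lower genes, and the calls lost are named beside the genes. Median-of-ratios scaling moved the median of all genes by 0.13 and the higher and lower shares of all genes to 21.4% and 17.3%, and equal column sums gave 18.3% and 15.5%. The same 22 and 3 members were called under both.

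**Figure D1:**
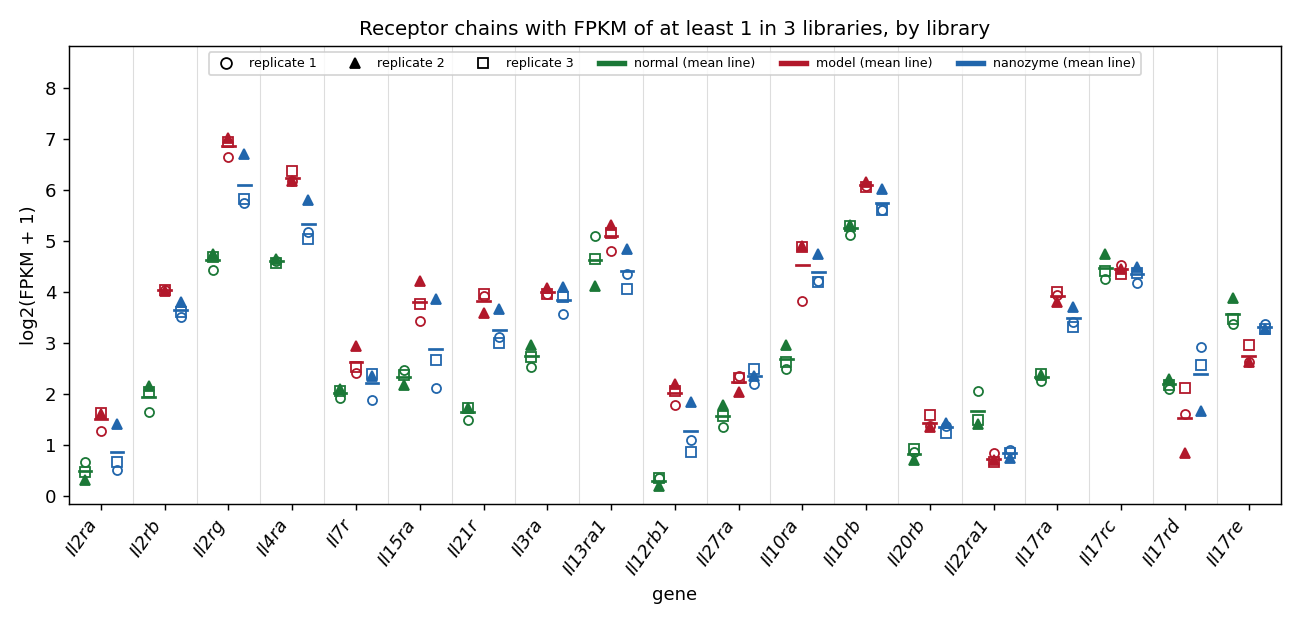
Receptor chains in the fit. Points are log2(FPKM + 1) per library on the vertical axis, by gene on the horizontal axis, with colour for the group, marker shape for the replicate and a line for the mean of 3 libraries. Il2rg, Il10rb and Il4ra have the highest levels, and Il22ra1 and Il17re are lower in model than in normal lung.

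The receptor chains that share the common gamma chain were all higher in model lung, 7 of the 7 tested. Il2rg encodes the common gamma chain itself, the signalling subunit used by interleukins 2, 4, 7, 9, 15 and 21. Il2rg stood at 20.8, 25.9 and 24.7 FPKM in the normal libraries and at 99.8, 129 and 122 FPKM in the model libraries, the highest level of any gene in the set (2.25 ± 0.25, adjusted p = 0.000589). Il2rb, the beta chain shared by interleukins 2 and 15, was at 2.14, 3.47 and 3.11 FPKM in normal and 15.5, 15.2 and 15.5 FPKM in model lung (2.09 ± 0.15, adjusted p = 0.000128). For both genes every model library lay above every normal one, and the 3 model libraries of Il2rb were nearly level.

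Il21r, the receptor for the T cell cytokine interleukin-21, was at 1.81, 2.29 and 2.33 FPKM in normal and 14.3, 11.1 and 14.7 FPKM in model lung (2.19 ± 0.19, adjusted p = 0.000251). Il4ra, the chain that binds interleukin-4 and also serves interleukin-13, was at 23.5, 24.2 and 22.7 FPKM against 71.9, 71.8 and 81.8 FPKM (1.64 ± 0.18, adjusted p = 0.000675). Neither gene's groups overlapped. Exons of Il2rg overlap those of Gm20489 on the same strand, so their reads may not have been kept apart. Il4ra and Il21r are consecutive protein-coding genes on chromosome 7 of GRCm38 (GENCODE vM21), from 125552120 to 125579474 and from 125603429 to 125633570, both on the plus strand and 23954 bases apart.

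The further chains Il15ra, Il2ra and Il7r rose as well. Il15ra, which presents interleukin-15 to neighbouring cells, was at 4.54, 3.50 and 4.20 FPKM in normal and 9.86, 17.7 and 12.7 FPKM in model lung (1.47 ± 0.40, adjusted p = 0.0200). Il2ra, the high-affinity chain of activated and regulatory T cells and the neighbour of Il15ra on chromosome 2, was at 0.583, 0.235 and 0.394 FPKM against 1.43, 2.05 and 2.09 FPKM (1.02 ± 0.24, adjusted p = 0.0118). Il7r, the interleukin-7 receptor of lymphocytes, was at 2.79, 3.27 and 3.15 FPKM against 4.33, 6.68 and 4.797 FPKM (0.61 ± 0.18, adjusted p = 0.0306). In these genes too the groups did not overlap, with model replicate 2 the highest for Il15ra and Il7r. The Il15ra call ended without model replicate 2 or 3 or normal replicate 2 or 3 (adjusted p from 0.0502 to 0.0667), and the Il7r call without model replicate 2 or 3 or any 1 normal library (adjusted p from 0.0539 to 0.0938).

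The cytokines of these receptors were mostly near 0. Il15, which sustains NK and memory T cells, was the only one of 6 in the fit, at 3.27 ± 0.255 FPKM in normal and 5.15 ± 0.984 FPKM in model lung. Its 3 model libraries lay above the normal ones, but it did not pass (0.52 ± 0.24, adjusted p = 0.115). It passed with only the 2 groups compared (adjusted p = 0.0298) and without nanozyme replicate 1 or 2 (adjusted p = 0.0486 and 0.0434). Il7, which supports lymphocyte survival, stayed between 0.445 and 0.780 FPKM in all 9 libraries. Il2, the T cell growth factor, was listed at 0 in all 3 model libraries, at 0.289, 0.814 and 0.348 FPKM in the normal ones and at 0.314, 0.0711 and 0.602 FPKM in the nanozyme ones. Il4, which drives type 2 responses, was likewise listed at 0 in the model libraries and at up to 0.474 FPKM elsewhere. Il21 reached at most 0.147 FPKM and Il9 was listed at 0 in every library. Il9r, the interleukin-9 receptor, missed the filter with 2 libraries above 1 FPKM.

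In the group of interleukins 3, 5 and 13, the cytokines were almost undetected and 1 receptor chain rose. Il3ra, the specific chain of the interleukin-3 receptor, was at 4.77, 6.84 and 5.58 FPKM in normal and 14.5, 15.98 and 14.6 FPKM in model lung (1.26 ± 0.16, adjusted p = 0.00105). Il13ra1, which pairs with Il4ra for interleukin-13, was at 33.5, 16.3 and 24.2 FPKM against 27.1, 39.0 and 34.8 FPKM, and its groups overlapped (0.47 ± 0.28, adjusted p = 0.211). Il13 and Il3 were listed at 0 in every library, and Il5, the eosinophil growth factor, reached at most 0.371 FPKM, in a normal library. The decoy receptor gene Il13ra2 was not in the fit, at 0.418, 0.507 and 0.405 FPKM in the model libraries and at most 0.0759 FPKM in the other 6. Il25, a type 2 cytokine of the interleukin-17 family, and Il31, an itch cytokine, were also listed at 0 throughout, and Il31ra and Il11ra2 stayed at or under 0.302 FPKM.

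The interleukin-12 family is built of paired subunits, and 3 of its 4 cytokine genes passed as higher in model lung. Of the 4, Il12b, Il23a and Il27 passed the filter with no normal library at 1 FPKM, mainly through the model libraries. This count is therefore partly set by the filter. Il12a, the subunit p35 of interleukins 12 and 35, was at 1.29, 1.78 and 1.62 FPKM in normal and 5.75, 15.1 and 12.7 FPKM in model lung (2.16 ± 0.43, adjusted p = 0.00607). Il27, the specific subunit of interleukin-27, was at 0.284, 0 and 0.245 FPKM against 4.09, 6.12 and 7.66 FPKM (2.54 ± 0.50, adjusted p = 0.00544). Il23a, the subunit p19 of interleukin-23, was at 0, 0 and 0.185 FPKM against 1.95, 3.42 and 2.75 FPKM (1.79 ± 0.35, adjusted p = 0.00553). All model libraries lay above all normal ones, and model replicate 1 was the lowest of its group for each of the 3 genes.

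Il12b, the subunit p40 that interleukins 12 and 23 share, did not pass. It was at 0.385, 0.547 and 0.859 FPKM in normal and 1.06, 4.003 and 2.77 FPKM in model lung (1.09 ± 0.53, adjusted p = 0.127), and it passed with only the 2 groups compared (adjusted p = 0.0347) and without nanozyme replicate 2 (adjusted p = 0.0227). On the FPKM scale, Il12b was under Il12a in every library. Ebi3, the partner of Il27, is not among the 57 genes and was at 35.0 ± 13.9 FPKM in model and 1.64 ± 0.334 FPKM in normal lung (3.71 ± 0.43, adjusted p = 0.000716).

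Of the receptors of this family, Il12rb1, shared by interleukins 12 and 23, was at 0.277, 0.139 and 0.274 FPKM in normal and 2.45, 3.604 and 3.17 FPKM in model lung (1.72 ± 0.25, adjusted p = 0.00171). Il27ra, the interleukin-27 receptor, was at 1.56, 2.44 and 1.96 FPKM against 4.11, 3.13 and 3.98 FPKM (0.67 ± 0.15, adjusted p = 0.00983). Neither gene's groups overlapped. Il12rb2, the second chain for interleukin-12, had 1 library above 1 FPKM and missed the filter, at 0.139 to 0.264 FPKM in normal and 0.761 to 1.43 FPKM in model lung. Il23r stayed at or under 0.604 FPKM. The exons of Il27 overlap those of Apobr, and those of Il27ra overlap those of Palm3, each on the opposite strand. As the counting's strand setting is not given in the sources used here, reads of such pairs may not have been kept apart.

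**Figure D2:**
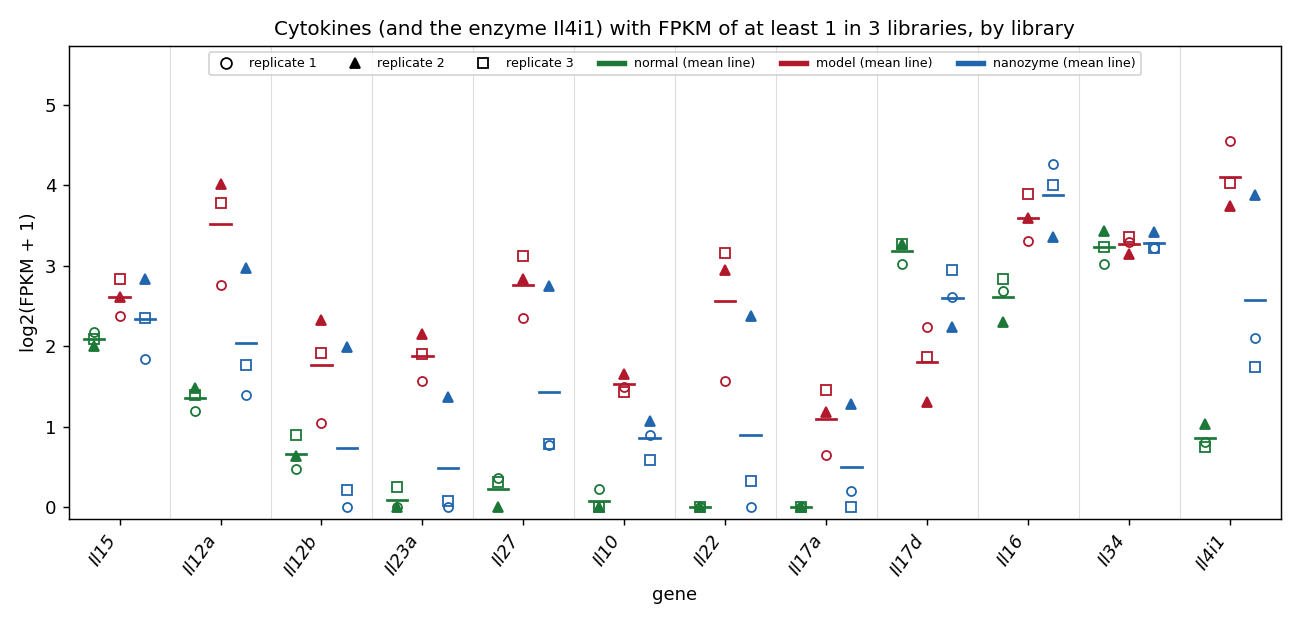
Cytokine genes in the fit, and Il4i1. Points are log2(FPKM + 1) per library on the vertical axis, by gene on the horizontal axis, with colour for the group, marker shape for the replicate and a line for the mean of 3 libraries. Nanozyme replicate 2 (filled triangle) is the highest nanozyme library for Il12a, Il12b, Il23a, Il27, Il22 and Il17a.

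In the interleukin-10 family, both cytokines in the fit were higher in model lung. Both passed the filter with no normal library at 1 FPKM, mainly through the model libraries, so this count is partly set by the filter. Il22, which acts on epithelium and is made by lymphocytes, was listed at 0 in all 3 normal libraries and at 1.97, 6.69 and 7.89 FPKM in the model ones (adjusted p = 0.0131). No fold is given for it, since a value of 0 has no known limit without counts. Il10, an inhibitor of macrophage and T cell responses, was at 0.169, 0 and 0 FPKM in normal and 1.80, 2.15 and 1.69 FPKM in model lung (1.45 ± 0.16, adjusted p = 0.000690). The other three stayed low: Il20 was listed at 0 throughout, Il19 reached at most 0.170 FPKM and Il24 at most 0.290 FPKM. Il24, Il20, Il19 and Il10 are consecutive protein-coding genes on chromosome 1, from 130882074 to 131024974, and Il10 was the only one of these 4 in the fit.

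Receptor chains of this family moved in both directions. Il10ra, the interleukin-10-binding chain of leukocytes, was at 4.63, 6.79 and 5.20 FPKM in normal and 13.2, 28.9 and 28.4 FPKM in model lung (1.84 ± 0.30, adjusted p = 0.00274). Il10rb, a chain shared by interleukins 10 and 22 and type III interferons, was at 34.0, 38.9 and 38.4 FPKM against 67.1, 70.9 and 65.8 FPKM (0.86 ± 0.13, adjusted p = 0.00214). Il20rb, shared by interleukins 19, 20 and 24, was at 0.812, 0.621 and 0.891 FPKM against 1.58, 1.55 and 2.00 FPKM (0.61 ± 0.13, adjusted p = 0.00845). In all 3 genes the model libraries lay above the normal ones. Exons of Il10rb overlap those of Gm21970 on the same strand, so its value is uncertain to that extent.

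Il22ra1, the epithelial chain that pairs with Il10rb to bind interleukin-22, was lower in model lung. It was at 3.19, 1.68 and 1.81 FPKM in normal and 0.782, 0.620 and 0.576 FPKM in model lung (-0.93 ± 0.18, adjusted p = 0.00561). The groups did not overlap, and normal replicate 1 was the highest. The soluble decoy Il22ra2 was not in the fit, at 0.477 to 0.853 FPKM in normal and 0.159 to 0.396 FPKM in model lung, and Il20ra reached at most 0.0839 FPKM. Of the epithelial markers Epcam, Cdh1 and Krt8, 2 of 3 were lower in model lung, with a summed level of 323 to 455 FPKM in normal and 282 to 472 FPKM in model lung, where Krt8 alone reached 343 FPKM. Of the lung markers given above, which include the secretory epithelial genes Sftpc, Sftpb and Scgb1a1, 3 of 4 were lower too, and Scgb1a1 was at 56368 to 71115 FPKM in normal and 5138 to 14018 FPKM in model lung. Their part in the Il22ra1 result was not tested. In bulk tissue, fewer cells of a type and less RNA per cell cannot be told apart.

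The interleukin-17 family also split. Il17a, the T cell cytokine that recruits neutrophils, was listed at 0 in all 3 normal libraries and at 0.569, 1.27 and 1.75 FPKM in the model ones (adjusted p = 0.0331). The call ended without model replicate 2 or 3 or any 1 normal library (adjusted p from 0.0774 to 0.101). Il17f, its neighbour on chromosome 1 and close relative, was listed at 0 in the normal libraries too and was at 0.630, 0.648 and 0.787 FPKM in the model ones, under the filter. Il17d, a less studied member expressed outside the immune system, was lower: 7.11, 8.60 and 8.59 FPKM in normal and 3.70, 1.47 and 2.63 FPKM in model lung (-1.38 ± 0.25, adjusted p = 0.00425). Il17c, an epithelial cytokine, stayed at or under 0.639 FPKM and Il17b at or under 0.193 FPKM.

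Among the receptors, Il17ra, the chain common to most interleukin-17 cytokines, was higher: 3.79, 4.22 and 4.23 FPKM in normal and 14.5, 12.999 and 14.99 FPKM in model lung (1.58 ± 0.12, adjusted p = 0.000180). Il17re, the receptor chain for interleukin-17C, was lower: 9.38, 13.7 and 10.2 FPKM against 5.19, 5.15 and 6.79 FPKM (-0.84 ± 0.16, adjusted p = 0.00431). Il17rc, the partner of Il17ra for interleukins 17A and 17F, was at 18.02, 25.8 and 20.4 FPKM against 22.1, 20.9 and 19.5 FPKM, and did not pass (-0.03 ± 0.14, adjusted p = 0.903). Its sign turned under equal column sums and median-of-ratios scaling. Beside the lower Il17d and Il17re, 2 of 3 epithelial and 3 of 4 lung markers were lower too, as given with Il22ra1. Of the fibroblast markers Pdgfra, Col1a1 and Tcf21, 1 rose and 1 fell (sums of 138 to 160 FPKM in normal against 89.4 to 167 FPKM in model lung). Of the endothelial markers Pecam1, Cdh5 and Emcn, 0 rose and 1 fell (287 to 312 against 138 to 260 FPKM). The part of all these markers in the Il17d and Il17re results was not tested. Il17re and Il17rc are 668 bases apart on the plus strand of chromosome 6, from 113458484 to 113470758 and from 113471427 to 113483140. Il17rd, also a regulator of fibroblast growth factor signalling, was at 3.29 to 3.92 FPKM in normal and 0.795 to 3.32 FPKM in model lung (-0.67 ± 0.37, adjusted p = 0.182), and Il17rb stayed at or under 0.731 FPKM.

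Il17a, a cytokine gene, was higher in model lung, and Il22ra1, a receptor gene, was lower. TGANTCA is a looser pattern than the AP-1 site of Jun and Fos factors, since it allows any middle base. The promoter windows of Il17a and Il22ra1 are shown because both hold a match to it and the genes moved in opposite directions. Each is the 250 bases before the RefSeq start on GRCm38.p6, plus strand, 5′ to 3′, with motif matches in capitals: chr1:20730655-20730904 for Il17a and chr4:135727909-135728158 for Il22ra1.
Il17a: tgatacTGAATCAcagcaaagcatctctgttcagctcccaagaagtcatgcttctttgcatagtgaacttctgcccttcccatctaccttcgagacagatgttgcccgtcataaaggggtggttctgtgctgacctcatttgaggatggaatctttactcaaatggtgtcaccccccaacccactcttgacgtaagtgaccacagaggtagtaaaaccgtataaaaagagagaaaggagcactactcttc
Il22ra1: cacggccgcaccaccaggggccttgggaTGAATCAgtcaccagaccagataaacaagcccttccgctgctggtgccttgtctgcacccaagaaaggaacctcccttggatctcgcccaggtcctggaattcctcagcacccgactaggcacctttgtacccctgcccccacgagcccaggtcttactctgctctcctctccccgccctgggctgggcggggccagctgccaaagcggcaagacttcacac
The capitals mark TGANTCA, which reads TGAATCA in both windows. It begins at position -244 from the start of Il17a and -222 from that of Il22ra1. For 41 of the 57 genes, 46 windows were found. Searching both strands, TGANTCA was in 9 of these 46 windows and in 6.75% of all 32851 windows. The genes with a match were Il13ra2, Il15ra, Il16, Il17a, Il17rb, Il20ra, Il22ra1, Il5ra and Il9. TTCNNNGAA, the site bound by STAT dimers, was in 4 of the 46 windows (Il7r, Il12rb2, Il19 and Il31ra) and in 7.02% of all windows. A match is a match of letters and no evidence of binding.

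Outside these families, Il16, a chemoattractant of CD4+ cells released from its precursor, was at 5.45, 3.92 and 6.13 FPKM in normal and 8.86, 11.1 and 13.8 FPKM in model lung (0.99 ± 0.26, adjusted p = 0.0170). The call ended without model replicate 3 (adjusted p = 0.0574) or normal replicate 2 (adjusted p = 0.0591), and exons of Il16 overlap those of Stard5 on the opposite strand. Il34, the second ligand of the receptor Csf1r, was nearly level, at 7.08, 9.78 and 8.38 FPKM against 8.81, 7.84 and 9.19 FPKM (0.04 ± 0.13, adjusted p = 0.836). Il4i1, an amino acid oxidase of antigen-presenting cells that lowers T cell activity, had the largest change among the 31 on the log2(FPKM + 1) scale. It was at 0.748, 1.05 and 0.673 FPKM in normal and 22.4, 12.4 and 15.2 FPKM in model lung (3.24 ± 0.49, adjusted p = 0.00214). The rank holds on that scale only, since the added 1 shrinks changes of genes with lower normal levels, such as Il27, Il23a, Il10 and Il22. Exons of Il4i1 overlap those of Nup62 on the same strand and of Atf5 and Tbc1d17 on the other, so its reads may not be its alone.

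**Figure D3:**
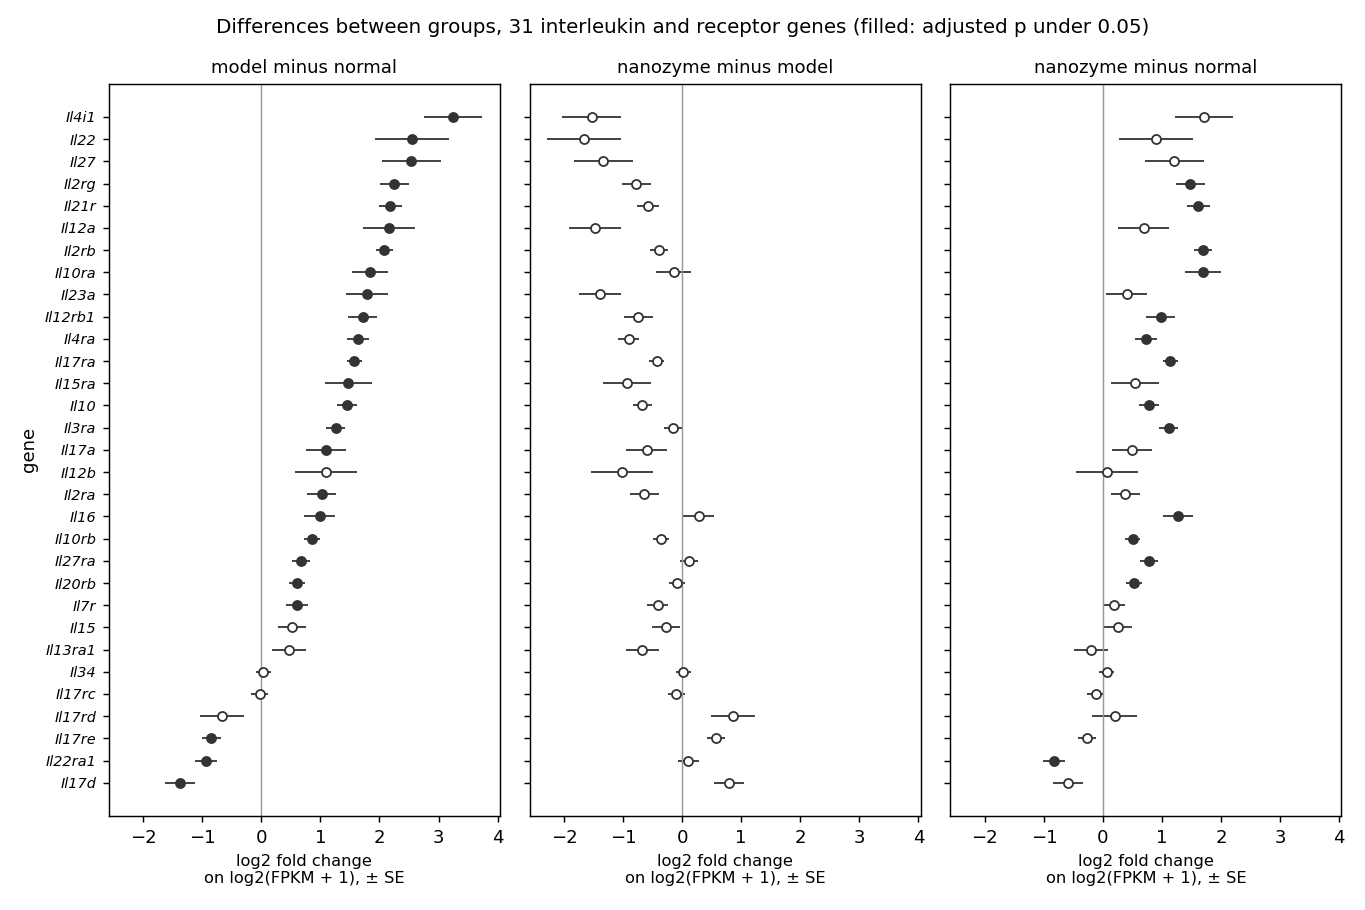
Differences between groups for the 31 genes in the fit. The horizontal axes give the log2 fold change on log2(FPKM + 1) with its SE for each of the 3 comparisons, genes are on the vertical axis, and filled points have an adjusted p under 0.05. In the first panel 25 points are filled, in the second 0 and in the third 14.

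Genes downstream of and beside these receptors, which are not among the 57, were counted in lists. The background for each list is 17.4% higher and 22.7% lower in model lung among all tested genes. Of the Janus kinases and STAT factors, 10 of 11 rose in model lung and 0 fell, among them the gamma chain kinase Jak3 (1.07 ± 0.19, adjusted p = 0.00344), Tyk2 (0.90 ± 0.14, adjusted p = 0.00231) and Stat4, which acts behind interleukin-12 (0.81 ± 0.14, adjusted p = 0.00335). The feedback inhibitors Socs1 (3.48 ± 0.69) and Socs3 (3.07 ± 0.48) rose, Socs2 fell by 0.42 on the log2 scale and Cish did not pass. Of 5 partner chains and cytokines with other names, 4 rose, including Csf2rb, the beta chain that works with Il3ra and Il5ra (3.85 ± 0.55), and its close copy Csf2rb2 (4.06 ± 0.60), for which reads can be shared. Tslp, an epithelial type 2 cytokine, fell.

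Of 11 tested genes known to be induced by interleukins 4 and 13, 4 rose and 0 fell, namely Chil3 (1.78 ± 0.15), Arg1 (2.99 ± 0.45), Pdcd1lg2 (1.44 ± 0.25) and Retnla. Of 9 genes of the interleukin-17 adaptor and its known targets, 8 rose and 0 fell, led by Lcn2 (5.87 ± 0.80), S100a8 (6.23 ± 0.36) and S100a9 (5.97 ± 0.38), and the adaptor Traf3ip2 did not pass. S100a8 and S100a9 are also abundant neutrophil genes. Of the T helper transcription factors, Tbx21 of type 1 cells rose (1.55 ± 0.14, adjusted p = 0.000273), Gata3 of type 2 cells did not pass and Foxp3 was under the filter.

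Markers of leukocytes differed by cell type in how they moved, and their part in the results above was not tested. All 5 neutrophil markers rose, with a summed level of 35.0 to 44.5 FPKM in normal and 2340 to 3046 FPKM in model lung. All 5 macrophage and monocyte markers rose, from 83.9 to 86.2 FPKM in normal against 496 to 619 FPKM in model lung. Of the T cell markers 2 of 5 rose (12.6 to 17.2 against 24.8 to 34.4 FPKM), of the NK cell markers 3 of 4 (11.03 to 14.2 against 32.4 to 46.7 FPKM), and of the B cell markers 0 of 4 (45.5 to 63.0 against 44.5 to 58.5 FPKM). Of 3 tested dendritic cell markers out of 4, 1 rose and 1 fell (16.2 to 17.3 against 28.6 to 35.6 FPKM). Of 7 markers of mast cells, basophils and eosinophils 2 were tested and 0 passed (3.33 to 5.53 against 1.95 to 2.45 FPKM), and Fcer1a, Mcpt4, Mcpt8, Prg2 and Epx were each listed at 0 in at least 1 library.

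In the nanozyme group, 0 of the 31 genes passed against the model in either direction (limma). Across all genes 0 passed as well, a background of 0 in each direction. At an unadjusted p under 0.05, 16 of the 31 were lower and 3 (Il17d, Il17rd and Il17re) higher than in model lung, against 8.68% and 13.4% of all genes. The groups did not overlap for 7 lower genes, Il2rb, Il4ra, Il7r, Il23a, Il10, Il10rb and Il17ra, against 5.83% of all genes, and for the 2 higher genes Il17d and Il17re, against 10.6%. Without nanozyme replicate 2, 16 of the 31 passed as lower and 2 as higher, where 9.64% and 12.5% of all genes did. Of these 16, 8 (Il2ra, Il12b, Il23a, Il27, Il12rb1, Il10, Il22 and Il17a) had passed the filter with no normal library at 1 FPKM, mainly through the model libraries in which they were high. The counts of lower genes are therefore partly set by the filter. Replicate 2 was also singled out on these same data, as the nanozyme library nearest the model libraries. Leaving it out tends to widen the differences from model, so the p-values without it, here and below, are no independent evidence of lower levels. Leaving out any other single library gave 0 of the 31 in either direction. The comparison of nanozyme with model shares the model libraries with the one above. The library names of the nanozyme group do not run on with those of the other groups, and a separate batch, if there was one, cannot be told apart from the treatment. The median log2 change of the 31 was -0.43, against 0.09 over all tested genes.

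The split within the nanozyme group was large for the cytokines. Il22 was listed at 0, 4.18 and 0.252 FPKM in nanozyme replicates 1, 2 and 3 (-1.66 ± 0.62 against model, adjusted p = 0.190). Il27 was at 0.706, 5.73 and 0.714 FPKM (-1.33 ± 0.50, adjusted p = 0.189), Il12a at 1.62, 6.82 and 2.40 FPKM (-1.47 ± 0.43, adjusted p = 0.181), and Il23a at 0, 1.58 and 0.0519 FPKM (-1.39 ± 0.35, adjusted p = 0.181). For Il22, Il27 and Il12a replicate 2 lay within the range of the model libraries, and for Il23a just under it, while replicates 1 and 3 lay below all 3 model libraries. Without replicate 2 the changes were -2.39 for Il22 (adjusted p = 0.00755), -1.99 for Il27 (adjusted p = 0.00128), -1.94 for Il12a (adjusted p = 0.00772) and -1.83 for Il23a (adjusted p = 0.000859).

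Il12b, at 0, 2.98 and 0.163 FPKM, and Il17a, at 0.152, 1.44 and 0 FPKM, were highest in replicate 2 as well, with adjusted p of 0.280 and 0.320 against model. Il17f was at 0, 1.02 and 0.210 FPKM, its highest value of any library falling in replicate 2. Il10 was at 0.863, 1.10 and 0.505 FPKM, under all 3 model libraries in each replicate (-0.67 ± 0.16, adjusted p = 0.181, and adjusted p = 0.0139 without replicate 2). Il4i1 was at 3.28, 13.6 and 2.34 FPKM (-1.53 ± 0.49, adjusted p = 0.182, and adjusted p = 0.00102 without replicate 2).

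The receptor chains were present in all 3 animals of the nanozyme group. Il4ra was at 35.1, 55.1 and 32.0 FPKM in nanozyme replicates 1, 2 and 3, each under the lowest model library and over the highest normal one (-0.91 ± 0.18 against model, adjusted p = 0.181, and -1.14, adjusted p = 0.000473, without replicate 2). Il2rg was at 53.1, 104 and 55.7 FPKM (-0.77 ± 0.25, adjusted p = 0.182, and -1.08, adjusted p = 0.00218, without replicate 2). Il2rb was at 10.4, 13.04 and 11.2 FPKM (-0.39 ± 0.15, adjusted p = 0.189, and adjusted p = 0.0650 without replicate 2) and Il17ra at 9.72, 12.1 and 9.003 FPKM (-0.43 ± 0.12, adjusted p = 0.181, and adjusted p = 0.0119 without replicate 2). Il21r was at 7.64, 11.7 and 6.998 FPKM (-0.57 ± 0.19, adjusted p = 0.182) and Il10rb at 48.1, 64.5 and 47.7 FPKM (-0.35 ± 0.13, adjusted p = 0.188), and both passed without replicate 2 (adjusted p = 0.0105 for each). In all 6 genes replicate 2 was the highest of its group.

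For 3 further chains, replicate 2 lay apart from the other nanozyme libraries. Il15ra was at 3.31, 13.5 and 5.39 FPKM in nanozyme replicates 1, 2 and 3 (-0.93 ± 0.40 against model, adjusted p = 0.223, and -1.42, adjusted p = 0.00787, without replicate 2). Il2ra was at 0.421, 1.65 and 0.597 FPKM (-0.64 ± 0.24, adjusted p = 0.192, and -0.91, adjusted p = 0.0102, without replicate 2). Il12rb1 was at 1.15, 2.60 and 0.828 FPKM (-0.74 ± 0.25, adjusted p = 0.182, and -1.03, adjusted p = 0.00529, without replicate 2). For Il15ra, Il2ra and Il12rb1, replicate 2 lay within the model range and the other 2 libraries below it. Il7r differed from these, with 2.69, 4.13 and 4.28 FPKM, all under the lowest model library (-0.42 ± 0.18, adjusted p = 0.232, and adjusted p = 0.133 without replicate 2). Il15, at 2.57, 6.14 and 4.11 FPKM, spanned both ranges.

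For 4 of the receptor chains called higher in model lung, the nanozyme group differed little from the model group in the mean. Il27ra was at 3.596, 4.12 and 4.59 FPKM (0.11 ± 0.15 against model, adjusted p = 0.690), Il3ra at 10.9, 16.1 and 13.9 FPKM (-0.15 ± 0.16, adjusted p = 0.599), Il10ra at 17.6, 25.9 and 17.4 FPKM (-0.15 ± 0.30, adjusted p = 0.791) and Il20rb at 1.59, 1.71 and 1.35 FPKM (-0.09 ± 0.13, adjusted p = 0.718). Il27ra and Il10ra lay at or above the lowest model library in every nanozyme library, while Il3ra in replicates 1 and 3 and Il20rb in replicate 3 lay under it. The sign for Il10ra turned without model replicate 2 or 3. Il16, at 18.2, 9.21 and 15.1 FPKM, had its highest 2 values of all libraries in nanozyme replicates 1 and 3 (0.28 ± 0.26, adjusted p = 0.533). Il34, at 8.32, 9.69 and 8.28 FPKM, and Il17rc, at 17.05, 21.6 and 19.7 FPKM, did not pass either (adjusted p = 0.931 and 0.709). Misses of the threshold do not show that these levels were equal to those of the model.

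Of the genes lower in model lung, Il17d was at 5.11, 3.73 and 6.67 FPKM and Il17re at 9.36, 8.73 and 8.67 FPKM in the nanozyme libraries, all above the model libraries (0.80 ± 0.25 and 0.57 ± 0.16, adjusted p = 0.182 and 0.181). Without nanozyme replicate 2, Il17d passed (0.98, adjusted p = 0.0334) and Il17re did not (0.59, adjusted p = 0.0538). Il17rd, at 6.55, 2.19 and 4.96 FPKM, passed as higher in that fit too (1.22, adjusted p = 0.0347). Il22ra1, at 0.866, 0.686 and 0.804 FPKM, did not pass (0.11 ± 0.18, adjusted p = 0.750, and adjusted p = 0.652 without replicate 2). Il13ra1, at 19.5, 27.7 and 15.8 FPKM, did not pass against model (-0.67 ± 0.28, adjusted p = 0.213, and adjusted p = 0.0614 without replicate 2).

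**Figure D4:**
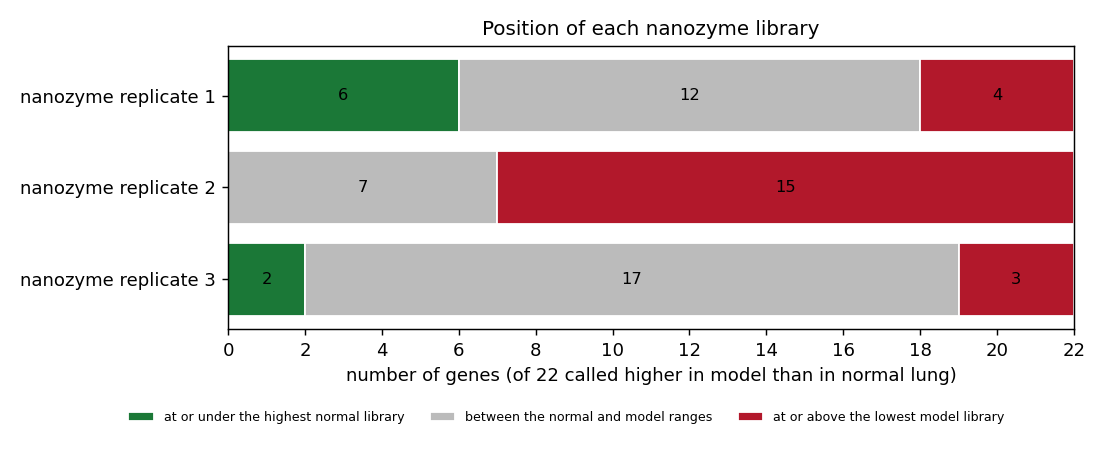
Where each nanozyme library lay for the 22 genes called higher in model than in normal lung. Bars count genes on the horizontal axis, split into those at or under the highest normal library, between the ranges, and at or above the lowest model library. Replicate 2 has 15 genes at or above the lowest model library, and replicates 1 and 3 have 4 and 3.

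Counted over the 22 genes called higher in model lung, nanozyme replicate 2 had 15 at or above the lowest model library, 7 between the ranges and 0 within the normal range. Replicate 1 had 4, 12 and 6, and replicate 3 had 3, 17 and 2. Over all 2525 genes called higher in model lung, 26.1%, 70.6% and 21.0% were at or above the lowest model library in replicates 1, 2 and 3, and 14.6%, 1.19% and 12.0% within or under the normal range. Both sets were chosen on the model and normal libraries that set these ranges, so the counts describe the libraries and nothing particular to the 22 genes. Il27ra, Il10ra and Il16 were at or above the lowest model library in all 3 animals. Il23a was within or under the normal range in replicates 1 and 3, joined in replicate 1 by Il2ra, Il7r, Il15ra, Il12a and Il22 and in replicate 3 by Il17a. Neutrophil markers were also highest in replicate 2, with summed levels of 1079, 3204 and 1285 FPKM in nanozyme replicates 1, 2 and 3, as were macrophage and monocyte markers, with 315, 482 and 285 FPKM. The part of these markers in the results was not tested.

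Against normal lung, 13 of the 31 genes were higher in the nanozyme group and 1 was lower (limma), where 8.39% and 5.50% of all genes were. At an unadjusted p under 0.05, 15 were higher and 2 lower, against 16.1% and 14.4% of all genes, and the groups did not overlap for 15 higher and 3 lower genes, against 22.1% and 20.8%. The median log2 change was 0.54, against -0.0086 over all tested genes. Of the 13, 11 were receptor chains out of 19 tested, and 2 were cytokines, Il10 and Il16, out of 11 tested. Among the 13, Il12rb1, Il10 and Il20rb had no normal library at 1 FPKM and passed the filter through the other groups. The counts of higher genes are therefore partly set by the filter here too. This comparison shares the normal libraries with the first and the nanozyme libraries with the second. Leaving out 1 library at a time gave 7 to 13 higher genes, with 7 without normal replicate 1 or 3 and 8 without normal replicate 2 or nanozyme replicate 1.

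The receptor chains above normal were led by Il2rb (1.69 ± 0.15, adjusted p = 0.000552), Il17ra (1.14 ± 0.12, adjusted p = 0.00127), Il21r (1.61 ± 0.19, adjusted p = 0.00178) and Il3ra (1.11 ± 0.16, adjusted p = 0.00393). Il2rg (1.48 ± 0.25, adjusted p = 0.00719) and Il10ra (1.69 ± 0.30, adjusted p = 0.00952) followed. For these 6 genes all nanozyme libraries lay above all normal ones, replicates 1 and 3 included. Il27ra (0.78 ± 0.15, adjusted p = 0.0135), Il12rb1 (0.98 ± 0.25, adjusted p = 0.0340), Il4ra (0.73 ± 0.18, adjusted p = 0.0345), Il20rb (0.52 ± 0.13, adjusted p = 0.0354) and Il10rb (0.50 ± 0.13, adjusted p = 0.0375) passed with smaller changes. Each of these 5 lost its call without normal replicate 1 or without normal replicate 3, with adjusted p up to 0.147. Il12rb1, Il4ra, Il20rb and Il10rb also lost it without normal replicate 2, without nanozyme replicate 1 and with only the 2 groups compared. The calls of Il4ra, Il20rb and Il10rb ended without model replicate 1, and those of Il12rb1 and Il10rb without model replicate 3. Il20rb lost its call without nanozyme replicate 3 as well. Without nanozyme replicate 2, Il20rb alone of the 13 higher genes lost its call (adjusted p = 0.0686). Many leukocyte markers were also higher than in normal lung, with 5 of 5 for neutrophils, 4 of 5 for macrophages and monocytes, 3 of 4 for NK cells and 3 of 5 for T cells. Of the B cell markers 1 of 4 was higher, and of 2 tested markers of mast cells, basophils and eosinophils 1 was higher. Of 3 tested dendritic cell markers 1 was higher and 1 lower. The NK cell markers summed to 42.4, 33.8 and 44.6 FPKM and the T cell markers to 20.5, 28.7 and 35.7 FPKM in nanozyme replicates 1, 2 and 3, and the part of these markers was not tested.

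Of the cytokines, Il10 (0.78 ± 0.16, adjusted p = 0.0184) and Il16 (1.27 ± 0.26, adjusted p = 0.0160) passed. The Il10 call ended without normal replicate 2 (adjusted p = 0.0516) or 3 (adjusted p = 0.0818) or nanozyme replicate 1 (adjusted p = 0.0513), and the Il16 call without normal replicate 1 (adjusted p = 0.0546). The interleukin-12 family cytokines passed in 0 of 4 cases (limma, 1 at an unadjusted p under 0.05), with adjusted p of 0.141 for Il27, 0.328 for Il12a, 0.490 for Il23a and 0.946 for Il12b. Il4i1 did not pass (1.71 ± 0.49, adjusted p = 0.0535) and did so without nanozyme replicate 2 (adjusted p = 0.0285) or 3 (adjusted p = 0.0353).

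Il22ra1 was the 1 gene lower than in normal lung (-0.82 ± 0.18, adjusted p = 0.0222), with all 3 nanozyme libraries under all 3 normal ones. The call ended without normal replicate 1 (adjusted p = 0.0572), normal replicate 3 (adjusted p = 0.0574) or nanozyme replicate 3 (adjusted p = 0.0531). Il17d (-0.58 ± 0.25, adjusted p = 0.161) and Il17re (-0.27 ± 0.16, adjusted p = 0.280) did not pass. The epithelial markers summed to 242 to 269 FPKM in the nanozyme libraries, under the normal range given above, with 2 of 3 lower than in normal lung, and their part in the Il22ra1 result was not tested.

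Of the genes under the filter, Il9r and Il5ra had their highest values in nanozyme replicates 1 and 3. Il9r was at 1.42, 0.513 and 1.52 FPKM in nanozyme replicates 1, 2 and 3 and at most 0.449 FPKM in the other 6 libraries. Il5ra, the interleukin-5 receptor chain of eosinophils and some B cells, was at 0.919, 0.229 and 0.472 FPKM, and at most 0.269 FPKM in the other 6. The summed B cell markers were at 214, 59.8 and 177 FPKM in the same 3 libraries, and the markers of mast cells, basophils and eosinophils at 8.45, 3.39 and 6.93 FPKM. The part of these cells was not tested.

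Of the 43 tested genes in the lists of other pathway genes, 0 passed between nanozyme and model lung (limma). At an unadjusted p under 0.05, 18 were lower and 3 higher, against 8.68% and 13.4% of all genes. Against normal lung, where 8.39% of all genes were higher, 5 of the 11 Janus kinases and STAT factors were higher (Jak1, Jak3, Tyk2, Stat4 and Stat5a). So were 3 of 5 partner genes, with Csf2rb at 2.13 ± 0.55 (adjusted p = 0.0365) and Ebi3 at 2.12 ± 0.43 (adjusted p = 0.0155). Of the SOCS genes 0 of 4 passed (limma, 1 at an unadjusted p under 0.05). Of the genes induced by interleukins 4 and 13, 1 of 11 was higher, Chil3, of the interleukin-17 list 3 of 9, Lcn2, S100a8 and S100a9, and of the T helper factors Tbx21 (1.48 ± 0.14, adjusted p = 0.000762).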

How the data were processed

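RNA was taken with TRIzol from lung tissue of 3 mice per group, and mRNA was selected with oligo(dT) beads, per the labels' protocols. Reads were aligned with HISAT2 to GRCm38, per the submitters' processing notes. Gene models, the counter with its strand setting, and any filters are not given in the sources used here. The authors deposited 1 table of FPKM values per gene, in which the columns match the library names in the labels. Counts were not used here, so depth and counting error are unknown.

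From these values log2(FPKM + 1) was fitted with limma 3.58.1 (R 4.3.3), with 9 libraries in 1 model, group as the only term, a mean-dependent prior and Benjamini-Hochberg adjustment over 14540 genes with at least 1 FPKM in at least 3 libraries. The pseudocount shrinks the fold changes of genes near 1 FPKM. The test was tried on simulated data first. An exact permutation test of 3 against 3 cannot go below p = 0.1 and was not used. Alternatives were median-of-ratios scaling, columns scaled to equal sums, a pseudocount of 0.1, testing all genes unfiltered, a replicate block, fits of only 2 groups, and leaving out each library. Every member in the fit is named, with values per library for those that passed and the most abundant that did not, and up to 3 genes with the smallest adjusted p per pathway list with their values. Il17a, Il12b, Il15 and members under the filter were given in more detail after their values were seen. One gene of the T helper factor list is not reported here. The members and lists were chosen with earlier results of these data known. Gene positions are from GENCODE vM21 and promoters from RefSeq on GRCm38.p6. Tables and figures were made with Python 3.11.15.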

Additional observations from a re-analysis of the deposited data

How the results depend on the processing

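The count of 22 higher and 3 lower genes in model against normal lung was 22 and 3 with median-of-ratios scaling, columns scaled to equal sums, a pseudocount of 0.1 and the replicate block, 24 and 3 with only the 2 groups, and 28 and 4 of 51 tested without a filter. Leaving out 1 library gave 18 to 24 higher and 3 to 3 lower. Nanozyme against model gave 0 to 2 higher and 0 to 16 lower, the 2 and 16 without nanozyme replicate 2. Nanozyme against normal gave 7 to 13 higher and 0 to 1 lower, the 0 without normal replicate 1 or 3 or nanozyme replicate 3, and 9 higher with only the 2 groups. Same-numbered libraries did not deviate together throughout (correlations from -0.33 to 0.23), though between nanozyme and model lung all were positive (0.086, 0.227 and 0.135). Taken around means of 3 libraries, these values cannot show whether the numbers pair the libraries, which is not known. With the replicate block 0 genes passed between nanozyme and model lung, and 11 higher and 1 lower between nanozyme and normal lung, without Il4ra (adjusted p = 0.0512) and Il20rb (adjusted p = 0.0712). Il10rb lost its call in that comparison under median-of-ratios scaling (adjusted p = 0.0581). With no counts, values under 1 FPKM carry an unknown counting error.

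Signs turned for changes that were not called, and the cause was not tested. In model against normal lung, Il17rc was 0.048 with equal sums and 0.115 with median-of-ratios scaling. Leaving out 1 library, it ran from -0.136 to 0.110 and Il34 from -0.0674 to 0.140. In nanozyme against model lung, median-of-ratios scaling gave -0.0846 for Il34 and -0.0595 for Stat4. Leaving out 1 library, Il10ra ran from -0.5002 to 0.0365, Il34 from -0.0448 to 0.0658, Chil3 from -0.114 to 0.0982, Jak3 from -0.313 to 0.00077 and Stat4 from -0.0504 to 0.127. In nanozyme against normal lung, Il12b was -0.631 with a pseudocount of 0.1. Leaving out 1 library, it ran from -0.556 to 0.441, Il13ra1 from -0.460 to 0.0370, Il23a from -0.0451 to 0.640, Il17rc from -0.234 to 0.0133, Il17rd from -0.0690 to 0.554 and Il34 from -0.0452 to 0.163.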
